A study of Mus musculus with 2 samples.

Results

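The 9 genes described here encode transcription regulators that are associated with the effector state of regulatory T (Treg) cells: Gata3, Maf, Prdm1, Id2, Batf, Irf4, Rora, Nfatc1 and Ikzf3. They were taken by symbol, as 9 of the 32285 gene features counted in each library, and each symbol matched a single feature. The cells were mouse Treg cells stained with MitoTracker, a dye taken up by mitochondria, and sorted into a bright fraction (Mito-high) and a dim fraction (Mito-low). Each fraction gave 1 library of droplet-based single-cell RNA sequencing, for which the labels state that 12000 cells were loaded. The sources used here do not state tissue, strain, sex, age or treatment of the mice, nor their number. With 1 library per fraction no difference between the fractions could be tested against the spread between replicates. Every interval below covers counting error only, and fraction and library cannot be told apart.

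A Treg cell that has not met its antigen recirculates through lymphoid tissue and keeps the genes of a resting T cell. Signals through the T cell receptor activate calcineurin and the NFAT factors and induce Irf4 and Batf, which bind DNA together and open the way to an effector state with Il10, Klrg1 and chemokine genes. Prdm1 (encoding Blimp-1) and Maf act further along and are known for their part in Il10 expression, Gata3 and Rora are known from Treg cells of barrier tissues, Id2 binds E proteins and keeps them off DNA, and Ikzf3 (Aiolos) is a zinc finger factor of the Ikaros family.

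In each library, cells were divided by genes that are not among the 9. Resting cells had at least 1 unique molecular identifier (UMI, 1 counted transcript) of Igfbp4, effector cells had at least 2 of Ccl5, Il10 and Klrg1 detected, and the remaining cells are called other cells. The Mito-high library held 2765 resting cells (22.6% of 12217 kept cells, 95% Clopper-Pearson interval 21.9 to 23.4), 165 effector cells (1.35%, 1.15 to 1.57) and 9281 other cells. The Mito-low library held 185 resting cells (1.58% of 11679, 1.37 to 1.83), 1530 effector cells (13.1%, 12.5 to 13.7) and 9961 other cells. Only 6 and 3 cells met both rules and are in none of these classes. Other cells are not one kind of cell: 1135 of them in Mito-high and 3512 in Mito-low had 1 of the 3 effector genes.

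Median depth was 6132 UMIs per kept Mito-high cell and 4668 per kept Mito-low cell. Shares of cells with a UMI of the 9 genes are therefore given after every cell was reduced at random to 2000 UMIs, which left out 139 and 491 shallower cells. Classes and cycling cells were set on full counts. Median depth was 8736 and 5288 UMIs in Mito-high and Mito-low effector cells, and 6402 and 5582 in resting cells. Set on the reduced counts, 1420 and 100 cells were resting and 38 and 753 effector. As to the labelled cell type, all 6 T cell markers and all 11 Treg markers, Foxp3 among them, were measured in both libraries, and 5 of the 11 Treg markers were at least 1.5-fold lower in Mito-high. Genes that mark mast cells, red cells and platelets were at or near 0, and the myeloid list summed to 4.52 and 3.60 CPM (UMIs of a gene per 1000000 UMIs of the library or class). The ILC2 list, whose cells also use Gata3, Rora and Id2, summed to 8.90 CPM in Mito-high against 25.3, nearly all from Bmp7, with Il5 at 0.07 in both, and the NK list to 53.9 against 66.2, nearly all from Nkg7, with Ncr1 at 0 in both. Cycling cells, defined by at least 2 of 8 proliferation genes, made up 10.4% of the Mito-high library against 2.18% of Mito-low, and 39.4% of the Mito-high effector cells against 3.07% of the Mito-low ones. A list of 10 RNA quality and stress genes, led by Malat1 and Gm42418, summed to 11876 CPM against 23140 in Mito-low, with 6 of the 10 genes at least 1.5-fold lower in Mito-high. The part of RNA quality in the results was not tested. Counts of the 9 genes in each comparison of levels, and of their pairs over all cells, were also taken without cycling cells.

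RefSeq promoter sequence (GRCm38.p6, the 250 bases before the start of the gene) was at hand for 6 of the 9, namely Gata3, Prdm1, Id2, Batf, Irf4 and Rora. These were searched on both strands for short patterns like those the factors read: TGANTCA for BATF and its AP-1 partners, TGGAAA for NFAT and AGATAA for GATA factors. N stands for any base, so the AP-1 pattern is a loose one. Among the 6, TGANTCA was found in Prdm1 only, AGATAA in Batf only and TGGAAA in none, while 6.87%, 10.3% and 18.7% of 27018 mouse promoters of the same length held these letters. The Prdm1 and Batf sequences are shown because they are the 2 with a match, which is given in capitals. In Prdm1 (minus strand, chr10:44458749-44458998, inside the longer gene model of the mm10 annotation) the letters of the AP-1 pattern, with A as the free base, begin 48 bases before the start. In Batf (plus strand, chr12:85686470-85686719) the GATA letters, on the opposite strand, begin 245 bases before it. A match of this kind describes the letters and shows no binding.
Prdm1: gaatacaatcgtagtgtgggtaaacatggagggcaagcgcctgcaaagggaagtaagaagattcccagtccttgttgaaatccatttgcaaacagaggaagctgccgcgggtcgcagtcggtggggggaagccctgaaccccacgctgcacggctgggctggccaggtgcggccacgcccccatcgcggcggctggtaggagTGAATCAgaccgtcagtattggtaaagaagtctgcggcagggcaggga
Batf: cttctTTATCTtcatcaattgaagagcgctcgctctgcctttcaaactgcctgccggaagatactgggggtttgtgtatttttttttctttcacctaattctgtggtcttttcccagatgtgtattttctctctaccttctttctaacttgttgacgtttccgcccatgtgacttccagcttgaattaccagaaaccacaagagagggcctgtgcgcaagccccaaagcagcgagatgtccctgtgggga

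Over all kept cells, 6 of the 9 genes were at least 1.5-fold lower in Mito-high than in Mito-low, none was higher and Batf, Irf4 and Ikzf3 lay between. Among 5783 genes at 20 CPM or more in either library, 10.6% were lower by that size and 3.63% were higher. The median log2 ratio of the 9 genes, Mito-high over Mito-low, was -0.94, and that of all 5783 genes was -0.15. In the mm10 genome Id2 and Batf share a chromosome, at chr12:25093799-25096092 and chr12:85686720-85709087, and the others lie apart: Gata3 at chr2:9857078-9887953, Maf at chr8:115703253-115706894, Prdm1 at chr10:44437174-44528558, Irf4 at chr13:30749233-30766981, Rora at chr9:68653404-69388246, Nfatc1 at chr18:80606205-80713071 and Ikzf3 at chr11:98464610-98546031.

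The strongest differences were in the pair known for Il10. Maf had 80.6 CPM in Mito-high against 310 in Mito-low, a log2 ratio of -1.94 (-1.98 to -1.90). Prdm1, the repressor Blimp-1, had 7.78 and 30.3 CPM from 699 and 1832 UMIs, a log2 ratio of -1.96 (-2.09 to -1.83). In both genes the Mito-high level was less than that of Mito-low by a factor of nearly 4, 3.85 for Maf and 3.89 for Prdm1. At 2000 UMIs per cell, Maf was detected in 11.3% of Mito-high cells against 37.2% in Mito-low, and Prdm1 in 1.28% and 5.26%. Cells with Maf also held more of it in Mito-low: 1.67 UMIs per positive cell against 1.38 in Mito-high at this depth.

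Id2, the inhibitor of E proteins, had 92.3 CPM in Mito-high against 274 in Mito-low (log2 ratio -1.57, -1.61 to -1.53), and was detected in 13.5% and 30.7% of cells. Rora, a nuclear receptor, had 332 and 654 CPM (log2 ratio -0.98, -0.998 to -0.954) and was detected in 31.5% and 55.4% of cells. Nfatc1, the calcineurin-dependent factor, had 68.6 and 131 CPM (log2 ratio -0.94, -0.98 to -0.89). These 3 genes thus formed a middle group, with Id2 at a 2.97-fold difference and the other pair just under 2-fold. Gata3 had 114 and 187 CPM (log2 ratio -0.71, -0.75 to -0.67), but its difference fell short of 1.5-fold when the libraries were scaled by TMM (-0.52), by the median gene (-0.56) or without mitochondrial, ribosomal and receptor genes (-0.58).

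The factors induced by receptor signals differed by less than 1.5-fold. Batf had 86.2 and 104 CPM (log2 ratio -0.27, -0.32 to -0.22) and Irf4 had 44.2 and 45.3 CPM (-0.04, -0.11 to 0.04), and Irf4 was at 0.15, 0.11 and 0.10 under the same 3 scalings. Ikzf3 had 155 and 186 CPM (-0.27, -0.30 to -0.23). In cells of 4000 to 6000 UMIs, however, 8 of the 9 genes were at least 1.5-fold lower in Mito-high, as were 14.1% of all genes, with Batf at -0.77, Irf4 at -0.64 and Rora at -1.67. Gata3 was at -0.71 there too, and Ikzf3, the gene that stayed short of 1.5-fold, at -0.38.

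The levels by class put the effector cells above the resting cells for every one of the 9 genes in both libraries. All 9 were at least 1.5-fold higher in effector than in resting cells of Mito-high, where 24.8% of 5840 genes were, and all 9 were in Mito-low, where 23.5% of 5953 genes were. Their median log2 ratio was 2.01 in Mito-high and 1.83 in Mito-low, beside 0.22 and 0.20 for all genes. Markers of other cell types rose from resting to effector cells as well. The NK list went from 16.2 to 126 CPM in Mito-high and from 12.5 to 158 CPM in Mito-low, and the CD8 T cell list from 23.1 to 136 and from 20.5 to 164 CPM, both nearly all from Nkg7, with Cd8a at 0 in the effector cells of both libraries. The B cell list went from 51.2 to 157 and from 26.7 to 161 CPM, nearly all from Cd74 and Cd79b, with Pax5 at 0 in both groups of effector cells. The ILC2 list went from 5.75 to 19.7 and from 8.02 to 30.9 CPM. Their part in the steps of the 9 genes was not tested. The 9 genes were chosen as effector factors, so that their direction is not independent of their name.

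**Figure D1:**
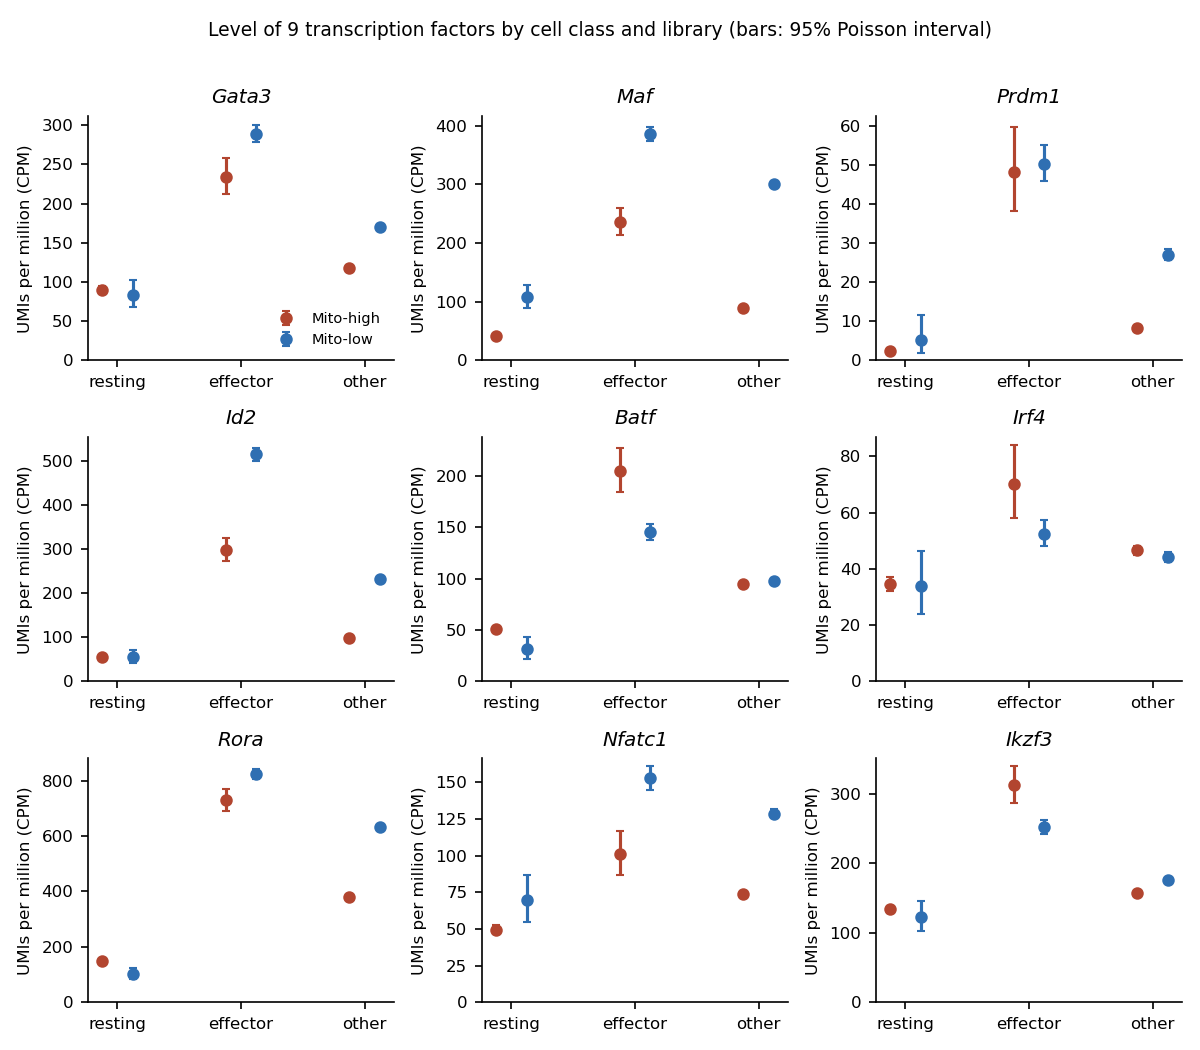
Level of each of the 9 genes in CPM (y axis, from 0, a different scale in each panel) in resting, effector and other cells (x axis) of Mito-high (red) and Mito-low (blue); bars are 95% Poisson intervals. In every panel the effector point is the highest of its library and the resting point the lowest; Batf, Irf4 and Ikzf3 peak in Mito-high effector cells, the other 6 genes in Mito-low effector cells.

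Prdm1 had the steepest step of the 9 genes in Mito-high. It went from 2.31 CPM in resting cells (49 UMIs) to 8.34 CPM in other and 48.1 CPM in effector cells, a log2 ratio of effector over resting of 4.37 (3.86 to 4.92). In Mito-low it went from 5.35 CPM (6 UMIs) to 27.1 and 50.3 CPM, a log2 ratio of 3.01 (2.10 to 4.69), beside 3.20 (2.86 to 3.61) for Id2 in that library. The effector levels of the 2 libraries overlapped in their intervals, whereas the levels of other cells differed by 3.25-fold.

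Maf followed a different order. Its levels were 386 CPM in Mito-low effector cells, 300 in Mito-low other cells, 236 in Mito-high effector cells, 108 in Mito-low resting cells, 88.8 in Mito-high other cells and 41.6 in Mito-high resting cells. Only the Mito-low resting and the Mito-high other cells, neighbours in this order, had intervals that overlapped. Other cells of Mito-low thus held more Maf than effector cells of Mito-high, and the same was found for Nfatc1, at 128.6 against 100.9 CPM.

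For Id2, Rora and Gata3 the order was that of the classes, with both effector groups above both groups of other cells and these above the resting cells. Id2 had 516 and 299 CPM in Mito-low and Mito-high effector cells, 234 and 98.6 in other cells, and 55.3 and 55.0 in resting cells, so that the libraries were alike in resting cells and apart elsewhere. Rora had 825 and 730 CPM in effector cells, 634 and 380 in other cells, and 102 and 149 in resting cells, the only place where Mito-high had more of it. Gata3 had 289 and 234 CPM in effector cells, 170 and 118 in other cells, and 83.8 and 90.1 in resting cells, where the intervals overlapped.

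Batf, Irf4 and Ikzf3 were highest in the effector cells of Mito-high, with classes set on full counts. Batf had 205 CPM there and 145 CPM in Mito-low effector cells, with 94.2 and 97.7 CPM in other cells and 50.8 and 31.2 CPM in resting cells. Irf4 had 70.2 and 52.6 CPM in effector cells, 46.6 and 44.2 in other cells, and 34.6 and 33.9 in resting cells. Irf4 had the flattest profile, and its step between effector and resting cells of Mito-low was 0.60 (0.16 to 1.15) in log2. Of the steps from resting to effector cells in both libraries, only this one fell short of 1.5-fold in some settings. It was 0.11 in cells of 4000 to 6000 UMIs and 0.23 with effector cells defined by all 3 genes. With resting cells defined by 2 Igfbp4 UMIs it was 0.07. In the other settings it ran from 0.62 (without cycling cells) to 1.22 (cells reduced to 2000 UMIs after the classes were set). Steps of other genes changed in size as well, such as that of Maf in Mito-high, at 2.51 and, in cells of 4000 to 6000 UMIs, 4.16. Ikzf3 had 312 and 252 CPM in effector cells, 157 and 175 in other cells, and 134 and 123 in resting cells.

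Other cells were above resting cells by at least 1.5-fold for 5 of the 9 genes in Mito-high and for 7 in Mito-low. Of the genes at 20 CPM or more these were 4 of 8 in Mito-high, where Prdm1 stays under that level, beside 4.17% of all genes, and 7 of 9 in Mito-low, beside 15.5%. Effector cells in turn were above other cells for 8 genes in Mito-high (13.2% of all genes) and for 3 in Mito-low (3.3%).

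The comparison of the 2 fractions was then made within each class. Among resting cells, Maf was lower in Mito-high (log2 ratio -1.38, -1.65 to -1.09), Prdm1 was at -1.41 with 6 UMIs in Mito-low (-2.44 to 0.30), and Batf was higher (0.67, 0.22 to 1.23). Prdm1 was under 20 CPM in both libraries here. Of the other 8, 1 was at least 1.5-fold lower and 1 higher, beside 6.1% and 3.83% of all genes, and the median of the 9 was -0.01. Rora, at 0.53 (0.27 to 0.82), was also on the Mito-high side. Without cycling cells Batf was at 0.50, short of 1.5-fold, and Rora at 0.27.

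Among effector cells, Id2 (-0.78, -0.92 to -0.66), Maf (-0.70, -0.86 to -0.56) and Nfatc1 (-0.59, -0.83 to -0.37) were at least 1.5-fold lower in Mito-high, 3 of 9 where 12.4% of all genes were lower and 9.85% higher. Prdm1 was at -0.05 (-0.42 to 0.28) and Rora at -0.18. Batf (0.50, 0.32 to 0.66), Irf4 (0.43, 0.12 to 0.71) and Ikzf3 (0.31, 0.17 to 0.45) were on the Mito-high side, short of 1.5-fold. Cycling genes summed to 969 CPM in these Mito-high cells and to 73.9 CPM in the Mito-low ones. Without cycling cells, which left 100 and 1483 effector cells, 0 of the 9 genes were at least 1.5-fold lower, beside 8.54% of all genes, with Id2 at -0.47, Maf at -0.44 and Nfatc1 at -0.32. Batf (0.69, 0.45 to 0.91) and Irf4 (0.65, with 0.23 as the lower end of its interval) were then higher by that size, beside 7.44% of all genes.

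Among other cells, 5 genes were at least 1.5-fold lower in Mito-high, where 9.09% of all genes were lower and 3.51% higher: Maf (-1.76), Prdm1 (-1.70), Id2 (-1.25), Nfatc1 (-0.80) and Rora (-0.74). When the classes were given the same weight in both libraries, Prdm1 was at -1.25, Id2 at -1.09, Maf at -1.57 and Gata3 at -0.44, so Prdm1 differed less by a factor of over 1.5 than over all cells, and Batf was at 0.07 in place of -0.27. In the cells with no UMI of Igfbp4, Ccl5, Il10 or Klrg1 (8146 in Mito-high, 6449 in Mito-low), Maf was still at -1.80 and Prdm1 at -1.60, Id2 at -0.98 and Ikzf3 at 0.03.

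**Figure D2:**
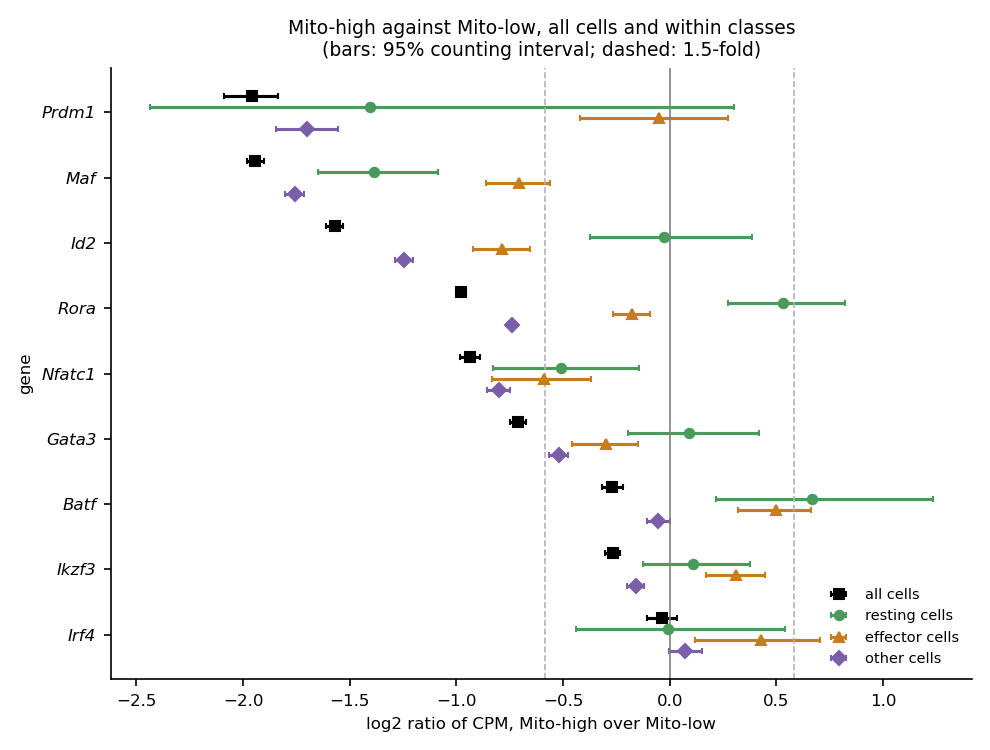
Log2 ratio of CPM, Mito-high over Mito-low (x axis), for the 9 genes (y axis) over all cells and within resting, effector and other cells; bars are 95% counting intervals and dashed lines mark 1.5-fold. Maf lies left of 0 throughout, from -1.94 to -0.70, while Batf, Irf4 and Ikzf3 lie between -0.27 and 0.67, and the resting-cell intervals are wide.

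Proliferation moved with some of the genes in Mito-high. Prdm1 had 15.9 CPM in cycling and 5.72 CPM in non-cycling cells (log2 ratio 1.47, 1.25 to 1.69), Batf had 126 and 76.0 CPM (0.73) and Rora had 466 and 298 CPM (0.64). These 3 of the 9 were at least 1.5-fold higher in cycling cells. Prdm1 was under 20 CPM in both groups, which leaves 2 of 8 genes beside 13.8% of all genes. In Mito-low none of the 9 was (3.01% of all genes), with Prdm1 at 0.27 (-0.09 to 0.57). Without cycling cells Prdm1 differed more between the fractions, at -2.39, and the number of lower genes was again 6, beside 10.9% of all genes.

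Detection of each factor in single cells was compared by effector gene. Groups were cells with only 1 of Ccl5, Il10 and Klrg1 at 2000 UMIs. They held 239, 197 and 178 cells in Mito-high and 1116, 929 and 774 in Mito-low. Genes lost in the reduction count as absent, so groups with 1 gene or none also hold cells that had more. The effector rule was met by 38 and 753 cells at this depth, against 165 and 1530 at full depth. Cells with Igfbp4 were not left out. Rora went with Klrg1, a receptor of late effector cells: it was detected in 80.3% (73.7 to 85.9) of cells with Klrg1 alone in Mito-high and in 76.7% (73.6 to 79.7) in Mito-low. With Ccl5 alone the shares were 57.7% and 57.1%, and with Il10 alone 42.1% and 53.1%. With none of the 3 genes they were 29.9% and 53.0%. In Mito-high, Rora was thus also detected more often with Ccl5 alone or Il10 alone than with none. In Mito-low, therefore, cells with Il10 alone had no more Rora than cells with none.

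Maf went with Il10 as well as Klrg1. In Mito-low it was detected in 52.3% (49.0 to 55.6) of cells with Il10 alone, 43.0% (39.5 to 46.6) with Klrg1 alone, 36.02% with Ccl5 alone and 33.8% with none. In Mito-high the shares were 38.6%, 40.4%, 18.0% and 10.1%. Ccl5, a chemokine, was thus the weakest partner of Maf in both libraries.

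Gata3 was most often found with Klrg1. It was detected in 33.1% and 45.3% of cells with Klrg1 alone in Mito-high and Mito-low, in 26.4% and 28.7% with Il10 alone, in 19.2% and 25.8% with Ccl5 alone, and in 18.4% and 25.0% with none. Mito-low cells with both Il10 and Klrg1 had it in 57.3% (50.9 to 63.4) of 255 cells. Ikzf3 was split in another way, with 36.5% and 34.1% for Il10 and 37.1% and 38.5% for Klrg1, but 19.7% and 23.0% for Ccl5, beside 22.7% and 21.5% with none.

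Id2 was higher with each of the 3 genes: 24.3%, 25.4% and 34.3% for Ccl5, Il10 and Klrg1 in Mito-high against 12.7% with none, and 39.1%, 40.6% and 49.1% in Mito-low against 23.9%. With 2 of the genes it reached 54.4% and with all 3 it reached 66.7% of 66 Mito-low cells. Prdm1 lay between 6.09% and 8.79% with any single gene in either library, beside 0.95% and 3.78% with none. Batf was at 26.8% with Ccl5 alone in Mito-high against 16.8% in Mito-low, and Irf4 was at 19.7% with Klrg1 alone in Mito-high and 9.30% in Mito-low. These 2 genes were the only ones for which, with a single effector gene, a Mito-high share stood above the Mito-low share with intervals apart, Irf4 for Ccl5 as well, at 12.1% and 6.18%. Nfatc1 lay between 20.3% and 25.7% with any single gene and 20.7% with none in Mito-low, whereas in Mito-high it was at 21.9% (16.1 to 28.7) with Klrg1 alone, 18.3% (13.1 to 24.4) with Il10 alone and 13.4% with Ccl5 alone against 11.3% (10.7 to 11.8) with none.

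**Figure D3:**
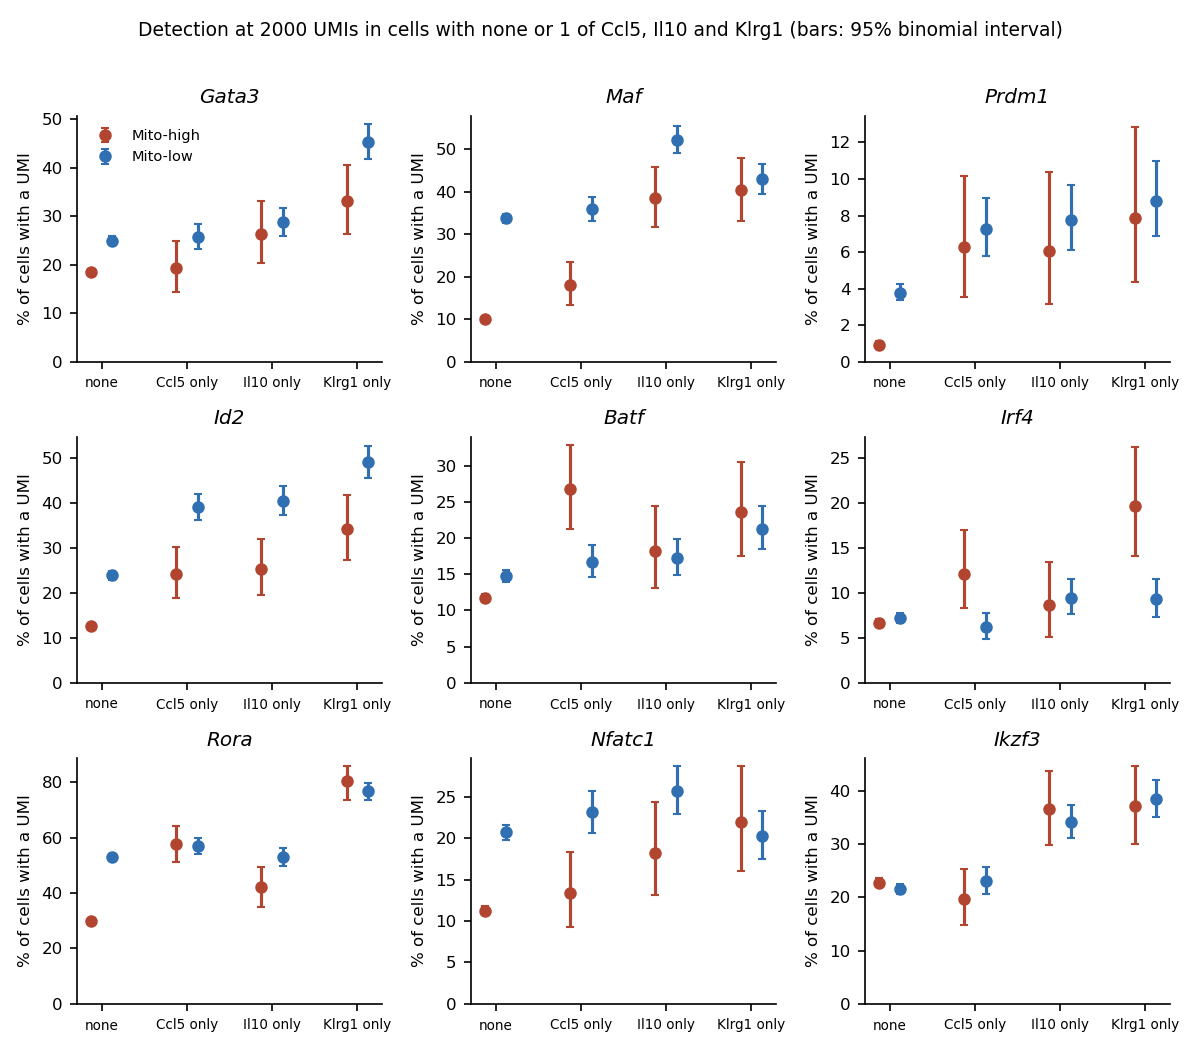
Share of cells with a UMI of each of the 9 genes at 2000 UMIs per cell (y axis, percent, from 0) in cells with none or exactly 1 of Ccl5, Il10 and Klrg1 (x axis) for Mito-high (red) and Mito-low (blue); bars are 95% binomial intervals. Rora is near 80% in cells with Klrg1 alone in both libraries, Maf and Ikzf3 are higher with Il10 or Klrg1 than with Ccl5, and Gata3 is highest with Klrg1.

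Detection was also compared between cells with and without each of 15 other genes. S100a4, a calcium-binding protein of activated T cells, marked the widest contrast: in Mito-high, Prdm1 was detected in 6.55% of 1359 cells with it and 0.61% of cells without it, and Maf in 38.3% and 7.82%. In Mito-low the same shares were 7.57% and 4.01% for Prdm1 and 46.6% and 32.1% for Maf. The 2 libraries thus lay closer to each other in cells with S100a4 than in cells without it; that difference was not tested. The chemokine receptor Ccr2 gave a like picture in Mito-high, with Prdm1 in 10.3% of cells with it and 1.07% of cells without it.

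Il1rl1, the receptor for interleukin-33, went with Gata3 at a ratio of shares of 1.49 in Mito-high, 1.52 in Mito-low, with Rora at 2.23 and 1.48, and with Nfatc1 at 0.94 and 0.78. Cxcr5, a receptor of follicular cells, went with Nfatc1 at 1.5 and 1.24, and in Mito-low with little Prdm1 (1.65% of cells with it, 5.37% without).

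Genes of resting cells had the opposite relation. Of cells with Ccr7, the lymph node homing receptor, 0.53% in Mito-high and 1.82% in Mito-low had Prdm1, beside 2.02% and 5.84% of cells without Ccr7. None of 100 Mito-low cells with Igfbp4 at this depth had Prdm1, which allows a share of up to 3% by the floor of 3 counts and 3.62% by the Clopper-Pearson limit. Foxp3, which defines the lineage, gave no such contrast: the ratio of shares between cells with and without a Foxp3 UMI ran from 0.81 to 1.24 over the 9 genes in both libraries. At this depth 667 Mito-high cells had a Foxp3 UMI and 11411 had none. Cells without a UMI are not cells without Foxp3, so these ratios cannot tell how the 9 genes relate to its expression.

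**Figure D4:**
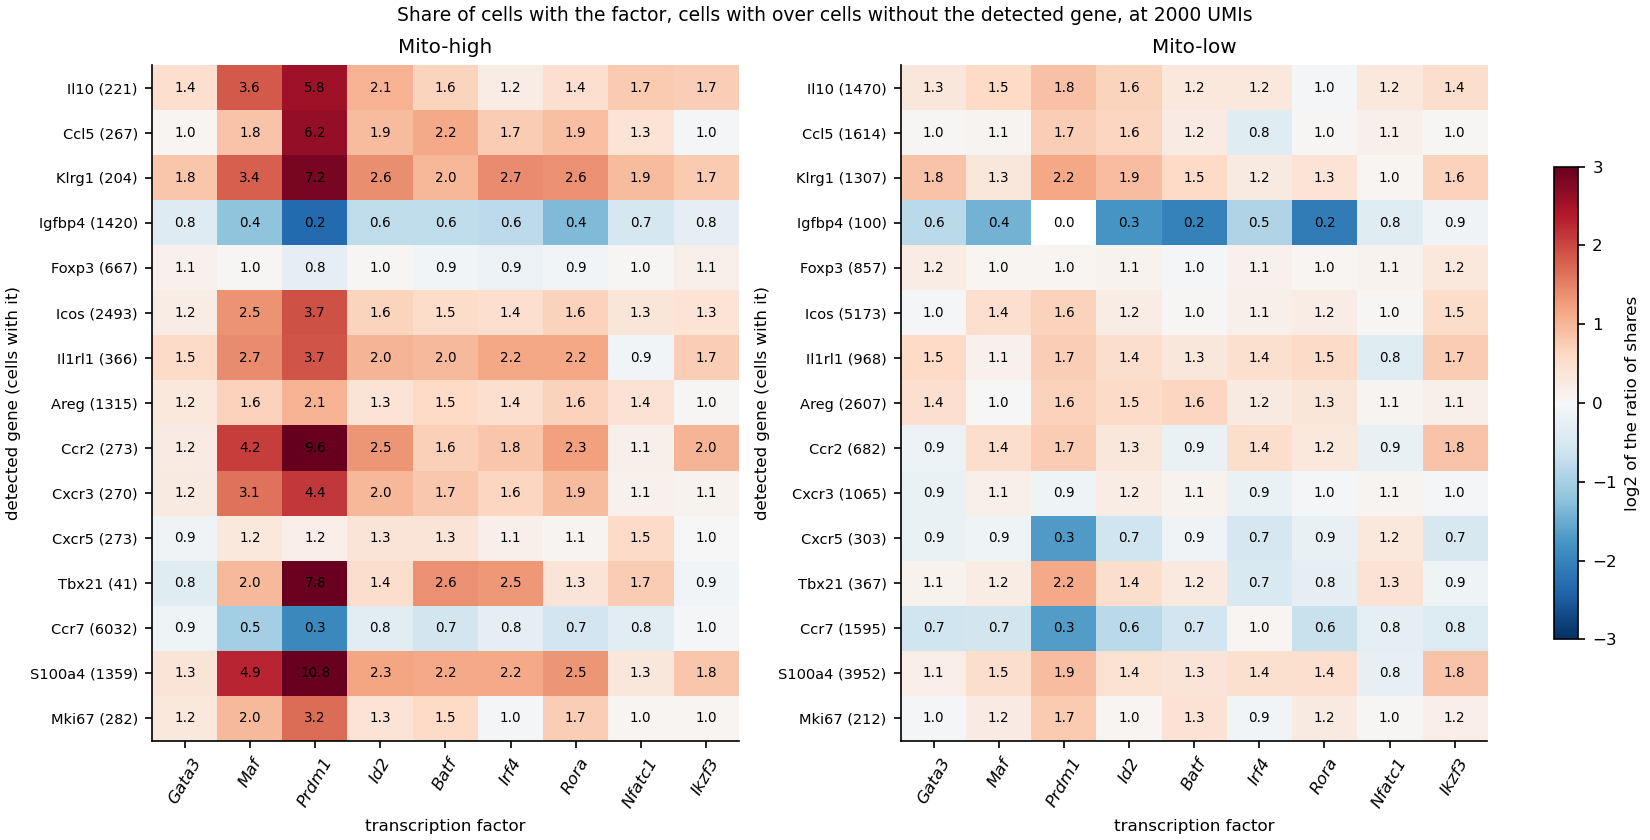
Ratio of the share of cells with each of the 9 factors (columns) between cells with and without each of 15 detected genes (rows, with the number of cells that have the gene) at 2000 UMIs per cell, for Mito-high and Mito-low; numbers are ratios and colours their log2, with a blank cell for a ratio of 0. Of the 15 genes, S100a4 and Ccr2 have the highest ratios for Prdm1 and for Maf in Mito-high, Igfbp4 and Ccr7 go with fewer of the factors, and the Foxp3 row is near 1.

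Background from free RNA was read from B cell-like cells without Cd3 transcripts, of which Mito-high held 16 (median 3094 UMIs) and Mito-low 0. None of the 16 had Gata3 or Prdm1, which allows shares of up to 18.8% by the floor of 3 counts and 20.6% by the Clopper-Pearson limit, and 1 each had Maf, Id2, Batf and Rora. Irf4, Nfatc1 and Ikzf3 were found in 8, 4 and 10 of them, and B cells are known to express these 3 genes. Many of the shares above lie under that limit, so 16 cells cannot set them apart from background.

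The 9 genes were detected together more often than their single shares give. For each of the 36 pairs the number of cells with both was divided by the number that independent detection would give at 2000 UMIs. Set beside these were pairs with at least 5 expected cells, of genes whose number of positive cells lay within the range of the 9. They are called all gene pairs here. The range was set anew in each library and class, and held 7496 genes in Mito-high and 4365 in Mito-low, so the sets are unlike. In Mito-high, 35 pairs were above 1, with a median ratio of 1.28. Of all gene pairs there 53.7% were above 1, with a median of 1.01. For 10 pairs the ratio reached 1.5, beside 2.51% of all gene pairs. In Mito-low, 34 pairs were above 1, with a median of 1.12, beside 54.4% of all gene pairs, with a median of 1.01. Here 0 pairs reached 1.5, beside 0.0248% of all gene pairs. The ratio cannot exceed the inverse of the larger share, which for pairs with Rora in Mito-low is 1.80, and so the libraries were also compared by odds ratio: 15 pairs reached 1.5 in Mito-high, beside 3.58% of all gene pairs, against 5 in Mito-low, beside 0.131%, with medians of 1.37 and 1.24.

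Maf and Prdm1 were the leading pair of Mito-high. They were found together in 59 cells where 17.3 were expected, a ratio of 3.40 (2.59 to 4.39), and 38.3% of cells with Prdm1 had Maf against 10.9% of cells without it. Prdm1 was in 6 of the 10 pairs past 1.5, with Irf4 at 2.34 (1.51 to 3.45), Ikzf3 at 2.04 (1.60 to 2.57), Id2 at 1.83, Rora at 1.71 and Batf at 1.69 beside Maf. Maf was in the other 4, with Batf at 1.71 (1.52 to 1.92), Id2 at 1.66, Rora at 1.55 and Irf4 at 1.54. Which pairs passed 1.5 varied with the thinning: Maf with Batf was at 1.43 in a second random draw and at 1.49 at 3000 UMIs, Maf with Id2 was at 1.43 at 3000 UMIs, and Prdm1 with Irf4 was at 1.76 in the second draw. Maf with Prdm1 was at 3.83 and 2.84 in the same settings. Batf and Irf4, the partners on DNA, were found together at 1.27 (1.06 to 1.5) in Mito-high and 1.12 (0.95 to 1.32) in Mito-low.

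In Mito-low, Prdm1 and Id2 led with 1.38 (1.21 to 1.56), followed by Maf and Prdm1 with 1.31 (1.17 to 1.47) and Gata3 and Prdm1 with 1.31 (1.14 to 1.49). In Mito-high the 8 ratios of Gata3 lay between 1.06 and 1.17, but between 0.94 (with Irf4) and 1.49 (with Prdm1) in the second draw. Nfatc1 and Ikzf3 were at 0.99 (0.89 to 1.11) in Mito-high and 0.93 (0.86 to 1.01) in Mito-low, and at 1.03 and 0.99 in the second draw.

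**Figure D5:**
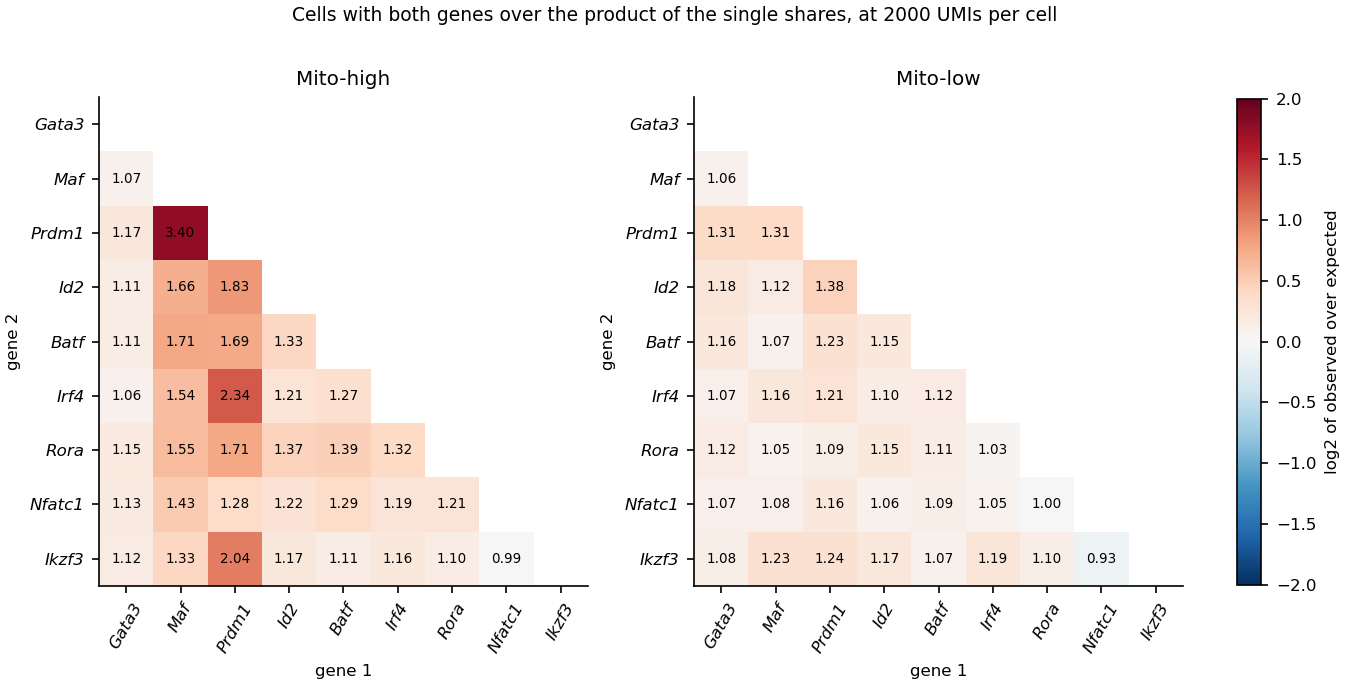
Cells with both genes of a pair over the number expected from their single shares, at 2000 UMIs per cell, for the 36 pairs in Mito-high (left) and Mito-low (right); numbers are that ratio and colour its log2. The Prdm1 and Maf columns stand out in Mito-high, with 3.40 for the pair itself, and the Mito-low panel runs only from 0.93 to 1.38.

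The pairs were also counted within the classes. Among effector cells 0 of 33 pairs with at least 5 expected cells reached 1.5 in Mito-high, beside 3.47% of all gene pairs, and 0 of 36 in Mito-low, beside 0.287%. The ratio has little room in these cells, since its upper bound goes down to 1.51 and 1.59. By odds ratio 10 of the 33 pairs reached 1.5 in Mito-high, beside 18.8% of all gene pairs, and 4 of the 36 in Mito-low, beside 2.04%, with medians of 1.03 and 1.09. Other cells had 8 of 36 pairs at a ratio of 1.5 in Mito-high, beside 2.72% of all gene pairs, led again by Maf and Prdm1 at 3.21 (2.38 to 4.23), and 0 in Mito-low, beside 0.0594%. Resting cells of Mito-high had 3 of 28 pairs, beside 5.47% of all gene pairs: Batf with Irf4 (1.76, 1.06 to 2.76), Irf4 with Nfatc1 (1.62, 0.99 to 2.50) and Maf with Batf (1.56, 0.94 to 2.43). Without cycling cells Mito-high again had 10 pairs, a setting in which all gene pairs were not counted.

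Counted per cell, Mito-low cells had a mean of 2.27 and Mito-high cells 1.30 of the 9 genes at this depth. None of the 9 was detected in 28.7% of Mito-high cells against 9.69% in Mito-low. At least 4 were detected in 5.21% of Mito-high cells where independence gives 2.57%, and in 18.9% of Mito-low cells where it gives 15.5%. At least 3 were detected in 15.2% and 40.7%, where it gives 12.4% and 40.3%. At least 2 were detected in 37.1% and 68.3%, less than the 38.5% and 72.1% that independence gives. No like figure was taken for other sets of genes. Effector cells of the 2 libraries could hardly be distinguished by this measure, with means of 2.98 and 2.99, and resting cells had 0.88 and 0.98. The means of other cells were 1.40 and 2.17.

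The relatives of the 9 genes mostly did not share their pattern. Of the Gata family only Gata1 was also measured at 5 CPM or more, and it was higher in Mito-high, at 7.16 against 1.77 CPM (log2 ratio 2.01). Beside Maf, the small Maf proteins Mafg, Maff and Mafk were at -0.84, -0.19 and 0.05. Beside Prdm1, the other 4 measured Prdm genes were between -0.46 and -0.28, and Bcl6, which Blimp-1 opposes in other lymphocytes, was at 0.15. Id3, the other Id protein measured, had the opposite pattern to Id2: it was higher in Mito-high (68.2 against 40.4 CPM, log2 ratio 0.76) and lower in effector than resting cells, at -1.56 in Mito-high and -2.27 in Mito-low.

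Bach2, a repressor that competes with AP-1 factors such as Batf for DNA, had 674 CPM in Mito-high against 303 (log2 ratio 1.15) and was lower in effector than resting cells, at -2.26 and -1.96. Of the 9 measured genes in the Batf, Jun, Fos and Bach list, Bach2 alone was higher in Mito-high by 1.5-fold or more, and Fosl2 (-0.93), Fosb (-0.74) and Jund (-0.63) were lower. Of 8 Irf genes only Irf5 was lower by that size, at 5.15 against 11.4 CPM (-1.15). Nr1d2, which binds the same DNA elements as Rora, was at -1.12. In the NFAT and calcineurin list, Nfatc1 and Nfatc2 (-0.76) were the 2 of 8 genes past 1.5-fold, and the calcineurin subunits lay between -0.14 and 0.05. None of the 5 Ikaros family genes passed 1.5-fold, with Ikzf1 at 0.55, Ikzf2 (Helios) at -0.52 and Ikzf4 at -0.09.

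The wider programs moved in the direction of the 9 genes. Of 26 effector Treg genes, all at 5 CPM or more in a library, 23 were at least 1.5-fold lower in Mito-high and 0 higher, beside 10.6% and 3.63% of all genes, with a median of -1.32, led by Fgl2 (-2.76), Tigit (-2.42), Cxcr3 (-1.86) and Cxcr6 (-1.81). Of 14 resting Treg genes, 11 were higher and 1, Il7r (-1.26), was lower, with a median of 1.26, led by Dapl1 (2.30), Ccr7 (1.78), Satb1 (1.74) and Ly6c1 (1.73). Bach2 is counted in this list as well. In effector against resting cells, 24 of the 26 effector genes passed 1.5-fold upward in Mito-high, beside 24.8% of all genes, and 23 in Mito-low, beside 23.5%.

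Finally, genes were ranked by how close their profile over the 6 groups of resting, effector and other cells lay to that of each factor, as the Euclidean distance between centred log2(CPM + 1) values among 6335 genes. The closest to Gata3 was Tnfrsf18 (0.22), a receptor of Treg cells, with 539 CPM in Mito-low effector and 160 in Mito-low resting cells. The closest to Id2 was Ccrl2 (0.23), followed by Areg, the tissue repair factor amphiregulin. The closest to Rora were Fam129a (0.30) and Nfil3, to Nfatc1 Gimap5 (0.13), to Irf4 Kdelr2 (0.09), to Ikzf3 Skap2 (0.14) and to Batf Cd79b (0.33). Maf and Prdm1 had no such near neighbour, with A330023F24Rik at 0.48 and Hip1 at 0.60. The profiles were not scaled, so the distance grows with the size of the steps between groups and does not rank the factors. In Mito-low resting cells Cd79b had 4.46 CPM and Hip1 2.67 CPM, less than the 5.35 CPM that 6 UMIs gave for Prdm1. These distances describe 6 groups from 2 libraries and carry no statement on shared control.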

How the data were processed

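The files hold raw UMI counts per gene and barcode, deposited by the authors and written by Cell Ranger 7.1.0 per the file headers; Seurat 4.3.0.1 and mm10 are named in the submitters' processing notes, and a 5' kit in the labels. Annotation release and treatment of intronic reads are not given in the sources. Of 12352 and 11901 barcodes (89996794 and 60688904 UMIs), those with under 500 genes (120 and 209) or over 20% mitochondrial UMIs (15 and 13) were left out. The 12352 Mito-high barcodes exceed the 12000 cells that the labels give as loaded, which the sources used here do not explain. No doublet caller was run; an alternative left out the 5% of cells with most UMIs. The libraries share 38 barcode sequences.

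Counts were summed per library and class and given as CPM, with exact 95% Poisson intervals; log2 ratios used a pseudo-count of 1 per sum and conditional binomial intervals, and shares Clopper-Pearson intervals. UMIs of 1 cell are not independent, so intervals are too narrow for differences between cells. A 1.5-fold line describes size, not significance. Cells were thinned to 2000 UMIs without replacement. Tools were Python 3.11.15, numpy 2.4.6, scipy 1.17.1, pandas 2.3.3 and edgeR 4.0.16 (TMM only); the scripts were tested on simulated data. Promoters came from RefSeq (GRCm38.p6), gene positions from the annotation of the same build. The text names all 9 genes, in each other list up to 4 genes of at least 5 CPM with the largest ratio between the fractions plus direct relatives, and the nearest profiles. The genes, classes and lists were chosen with earlier results of these data known. Another gene of the detection list is not reported here.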

Additional observations from a re-analysis of the deposited data

Results flagged for a closer look

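Some genes had ratios of opposite sign in 2 settings, with intervals on opposite sides of 0; none of these differences was tested. Rora, Mito-high over Mito-low, was at 0.53 in resting cells, -0.74 in other cells and -0.18 in effector cells, so that resting cells differed from other cells by 1.27 and from effector cells by 0.71 on the log2 scale. Without cycling cells Rora was at 0.27 in resting, -0.87 in other and 0.08 in effector cells. Ikzf3 was at 0.31 in effector cells and -0.16 in other cells, a difference of 0.47. Cycling over non-cycling cells, Rora was at 0.64 in Mito-high and -0.19 in Mito-low, a difference of 0.84. In the same comparison Id2 was at 0.15 and -0.29, a difference of 0.44.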

How the results depend on the processing

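There were 15 alternatives other than the size line (scaling, depth, weighting, cell filters, cells left out, pseudo-count). Over these, 5 to 8 of the 9 genes were at least 1.5-fold lower in Mito-high, against 6 as reported. At a 2-fold line 3 were. The 8 were found in cells of 4000 to 6000 UMIs, where 14.1% of all genes were lower, against 10.6% as reported and 10.9% without cycling cells. For the other alternatives and the 2-fold line no share of all genes was taken, so those counts have nothing beside them. The 3 other scalings shifted all ratios by 0.19, 0.15 and 0.13 in log2. All 9 genes were at least 1.5-fold higher in effector than resting cells of Mito-high under each alternative, and 8 or 9 were in Mito-low. The gene that fell short there was Irf4, whose log2 ratio stayed above 0, with 0.07 as the lowest. Pairs past 1.5 in Mito-high, 10 as reported, numbered 8 to 13 over the other depths, seeds and cell sets, 3 in resting cells only and 0 in effector cells only. In Mito-low there was 1 such pair at 1000 UMIs, Prdm1 with Id2 at 1.59, and 0 otherwise. The cause of these changes was not tested. Without cycling cells, the genes at least 1.5-fold lower in Mito-high effector cells went from 3 to 0, and the counts within resting and other cells stayed at 2 and 5. In the same setting, 6 genes in place of 5 were at least 1.5-fold higher in other than resting cells of Mito-high. In effector than other cells 9 were, in place of 8. In Mito-low these were 7 as before and 4 in place of 3. These class counts without cycling cells, and the alternative of cells with none of the 4 class genes, were chosen after seeing the data. Of the class counts, only that of effector cells between the fractions has a share of all genes beside it, 8.54%. For the others no such share was taken, so they are not set against all genes. No paired analysis was possible because each fraction had 1 library. Depth limits Prdm1 in Mito-low resting cells most, at 6 UMIs.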
